A study of Homo sapiens with 6 samples.

Results

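Squamous epithelial genes were followed in a lung adenocarcinoma line that had become resistant to gefitinib. The set holds 7 genes, taken by gene symbol from the 1705 genes of the deposited table: the cornified envelope precursors SPRR1A, SPRR1B and SPRR3, the keratins KRT13 and KRT6B, the protease inhibitor A2ML1 and the tripartite motif protein TRIM29. Each symbol matched 1 entry. PC9 is a human lung adenocarcinoma line with an EGFR exon 19 deletion, and gefitinib inhibits the EGFR kinase. PC9-GR, derived from PC9 by exposure to gefitinib in steps from 0.5 to 10 µM, carries the same deletion, was kept in 10 µM gefitinib and was grown without it for 7 days before RNA extraction. PC9 is the untreated parental line. Each group has 3 libraries from independent cultures, and whether PC9-GR is 1 clone or a mixed population is not given in the sources used here. RNA was measured by strand-specific sequencing, as FPKM, a fragment count scaled by transcript length and library size, in each library.

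Stratified squamous epithelia line the skin, the mouth and the oesophagus and are not a normal part of the distal airway, although airway epithelium can turn squamous after injury. As squamous cells mature, they crosslink small proline-rich (SPRR) proteins and other precursors into a tough shell under the plasma membrane, the cornified envelope. Keratins form the intermediate filaments of these cells, always as a pair of a type I and a type II chain. Squamous genes are also expressed in some adenocarcinoma lines.

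The 7 genes were lower in PC9-GR. In each of them every PC9-GR library lay below every PC9 library, which was also the case for 46.6% of all listed genes. All 7 passed limma's moderated test on log2(FPKM + 1) at adjusted p under 0.05 in the lower direction, against 51.3% of the 1207 genes tested. Every gene in the table differs at least 2-fold in the authors' own comparison of these libraries, and 99.7% of the genes tested were called. SPRR3 and KRT13 passed the filter of 1 FPKM in 3 libraries through their PC9 libraries alone, so these genes had to differ to be tested. The same holds for SPRR2D, SPRR2F, TGM5, AC019349.5 and NUGGC, described below. KLRG1, also described below, passed through its PC9-GR libraries alone. A call therefore adds little, and the sizes of the differences are described instead. The genes of the set were chosen with earlier results of these data known. Their sizes and ranks are therefore also subject to selection and are a description only. The median log2 difference (PC9-GR minus PC9) of the 7 genes was -3.07, against -0.63 over all genes tested. Because 619 tested genes were called lower and 584 higher, the latter median lies near the divide between the directions. It is not the typical size of a lower gene. By size, KRT13, SPRR1B and SPRR3 ranked 3, 4 and 5 among the 1207 tested genes, counted from the most lower. SPRR1A ranked 13, A2ML1 33, KRT6B 42 and TRIM29 375. These ranks count genes of both directions, of which 619 were called lower, so that of TRIM29 is not high among lower genes.

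Because the RNA is from whole cultures, fewer cells that express a gene and less of its RNA per cell cannot be told apart. The summed FPKM of the listed genes was 16705.1 to 17113.7 in PC9-GR libraries and 28346.0 to 30540.7 in PC9 libraries. How deeply each library was sequenced is unknown, because no counts were given. The labels call the cells epithelial, but none of the 10 epithelial markers looked for is listed, so that label could not be checked here. Of 7 lung markers only FOXA1 is listed, at 7.82 to 9.71 FPKM in PC9-GR libraries and 23.1 to 24.0 in PC9 libraries. Of the markers of other cell types, 0 of 5 endothelial genes are listed. Of 7 fibroblast genes only PDGFRB is, at 2.38 to 3.77 FPKM in PC9-GR libraries and 0.0661 to 0.143 in PC9 libraries. Of 6 haematopoietic genes only LYZ is, at 0.001 to 0.241 FPKM in PC9-GR libraries and 0.760 to 1.61 in PC9 libraries. Their part in the results below was not tested.

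The RefSeq promoter windows of SPRR1A, SPRR3, SPRR1B and SPRR2F are shown because these genes lie in the same stretch of chromosome 1 and were lower together. SPRR2F is outside the set, and among listed genes SPRR2D lies between it and SPRR1B. No window of SPRR2D is shown. The windows run from 250 bases before to 50 after the annotated start on GRCh38.p14, at chr1:152983831-152984130 (plus strand), chr1:153001499-153001798 (plus), chr1:153030953-153031252 (plus) and chr1:153113467-153113766 (minus). Capitals mark matches to TGANTCA, which AP-1 proteins (FOS and JUN) bind. They also mark the TATA box, TATAAA.
SPRR1A: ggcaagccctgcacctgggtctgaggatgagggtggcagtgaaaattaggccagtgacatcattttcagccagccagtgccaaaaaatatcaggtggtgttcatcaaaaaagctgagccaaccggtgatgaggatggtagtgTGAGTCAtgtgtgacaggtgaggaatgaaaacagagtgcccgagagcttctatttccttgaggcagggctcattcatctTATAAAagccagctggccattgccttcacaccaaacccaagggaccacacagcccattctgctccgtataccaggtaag
SPRR3: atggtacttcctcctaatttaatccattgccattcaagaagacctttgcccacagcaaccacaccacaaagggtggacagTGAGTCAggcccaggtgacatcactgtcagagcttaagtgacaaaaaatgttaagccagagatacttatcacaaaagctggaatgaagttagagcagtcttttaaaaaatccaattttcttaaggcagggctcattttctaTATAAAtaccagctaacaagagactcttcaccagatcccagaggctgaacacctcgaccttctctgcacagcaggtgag
SPRR1B: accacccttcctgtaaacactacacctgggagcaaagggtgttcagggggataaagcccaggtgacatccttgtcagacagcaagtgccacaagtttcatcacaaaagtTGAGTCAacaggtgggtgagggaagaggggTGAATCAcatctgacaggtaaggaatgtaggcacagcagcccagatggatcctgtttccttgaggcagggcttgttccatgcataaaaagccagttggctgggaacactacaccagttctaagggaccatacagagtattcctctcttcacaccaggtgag
SPRR2F: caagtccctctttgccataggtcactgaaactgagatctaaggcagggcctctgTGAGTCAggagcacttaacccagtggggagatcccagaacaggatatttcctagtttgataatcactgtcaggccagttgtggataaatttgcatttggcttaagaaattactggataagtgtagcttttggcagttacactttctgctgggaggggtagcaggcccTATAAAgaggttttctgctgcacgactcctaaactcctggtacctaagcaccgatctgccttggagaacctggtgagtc

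Each of the 4 windows holds TGANTCA, which reads the same way on both strands apart from its middle base. The match begins 108 bases before the start in SPRR1A, 170 in SPRR3 and 196 in SPRR2F, while SPRR1B has 2 matches, at 141 and 111 bases. Over all 35116 RefSeq windows, 7.71% hold the motif and 0.515% hold 2 or more matches, and among 1501 windows of genes in the deposited table the shares were 8.93% and 1.07%. TATAAA was searched on both strands and was found on the gene's strand 29 bases before the start in SPRR1A, SPRR3 and SPRR2F, and not in SPRR1B. It is present in 11.5% of all windows. Both A2ML1 windows lack TGANTCA, and the one at chr12:8822371-8822670 holds TATAAA 31 bases before the start. The paired ETS core was found in none of these windows (3.78% of all windows), and CACCC, a core bound by KLF proteins, was found in SPRR1A, SPRR3, SPRR1B and A2ML1 and is present in 59.9% of all windows on either strand. Windows of SPRR1A and SPRR1B were identical at 72.1% of aligned bases, and those of SPRR3 at 68.0% and 68.3% with SPRR1A and SPRR1B. The SPRR2F window was identical at 59.3% with SPRR1A, 61.4% with SPRR3 and 60.8% with SPRR1B. Against the A2ML1 window, a gene outside the family, identity was 54.9% (SPRR2F) to 66.4% (SPRR1B), a range that holds the 3 SPRR2F values. The longest run shared by the SPRR1A, SPRR3 and SPRR1B windows is aggcagggct, 10 bases, which begins 48 or 49 bases before the start. Windows for 4 of the 7 genes were found. A match is a description of letters and does not show that a factor binds there.

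SPRR1B, a precursor that is crosslinked into the envelope, was the most abundant of the 7 transcripts in PC9. It measured 15.4, 6.92 and 13.1 FPKM in PC9-GR libraries 1, 2 and 3, against 156.1, 219.3 and 365.7 FPKM in PC9 libraries 1, 2 and 3. The lowest PC9 library was 10.1 times the highest PC9-GR library, and within each line the libraries also differed widely. The means were 11.8 ± 4.41 FPKM in PC9-GR and 247.1 ± 107.5 FPKM in PC9 (SD, n = 3 each), a 20.9-fold difference. The difference on the log2(FPKM + 1) scale was -4.25 (SE 0.32, limma adjusted p = 1.62e-06). On that scale the added 1 understates changes of low genes.

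SPRR1A, the closest paralogue of SPRR1B, measured 1.96, 3.00 and 1.83 FPKM in PC9-GR and 21.2, 21.5 and 38.5 FPKM in PC9. PC9 library 3 stood above its 2 companions for both paralogues, whereas in PC9-GR library 2 was the highest for SPRR1A and the lowest for SPRR1B. The means were 2.26 ± 0.644 FPKM in PC9-GR and 27.1 ± 9.87 FPKM in PC9, an 11.96-fold difference, with a log2 difference of -3.07 (SE 0.23, limma adjusted p = 1.51e-06). In GENCODE 29 transcripts, 11.3% of the 50-base words of SPRR1A are also found in SPRR1B and 4.38% the other way, and at 100 bases none are, and reads in such stretches could be counted for either gene.

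SPRR3, a family member of internal squamous epithelia such as the oesophagus, showed the tightest values of the 3 in PC9-GR. It measured 0.764, 0.819 and 0.746 FPKM in PC9-GR, against 22.5, 27.6 and 31.8 FPKM in PC9. All PC9-GR libraries were under 1 FPKM, and the fold of the means was 35.2. The log2 difference was -3.98 (SE 0.14, limma adjusted p = 4.47e-08), for a gene that was tested only because PC9 reached the filter. SPRR3 shares no 50-base word with another gene's transcripts.

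**Figure D1:**
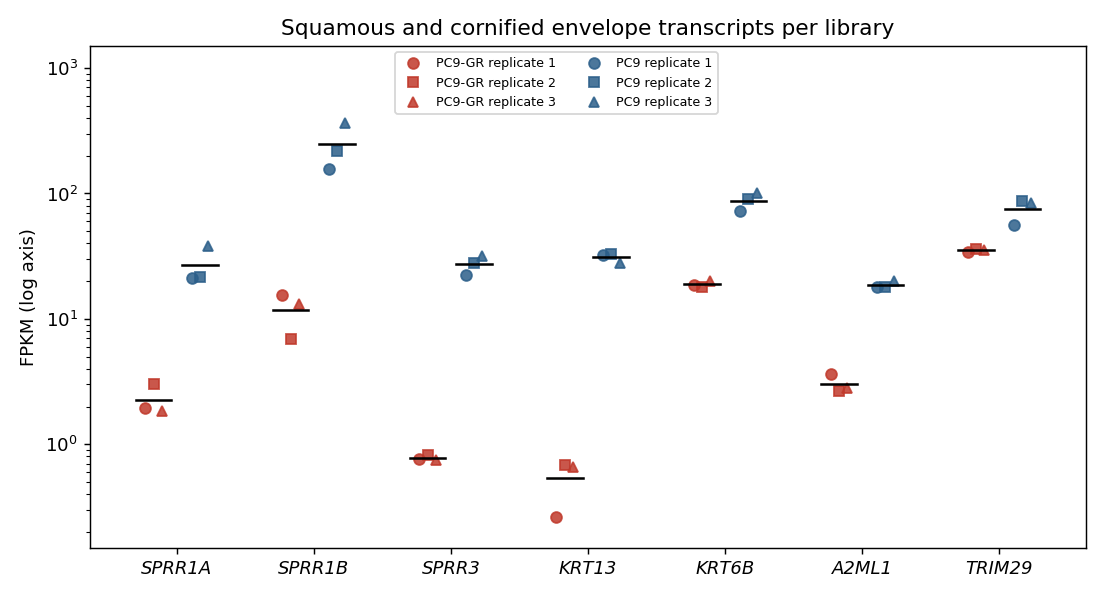
FPKM of each gene (log axis) in the 3 PC9-GR libraries (red) and the 3 PC9 libraries (blue), with symbols for replicate numbers and black lines for group means. The groups do not overlap for any of the 7 genes; SPRR3 and KRT13 are under 1 FPKM in every PC9-GR library, and TRIM29 has the narrowest gap between the lines.

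KRT13, a type I keratin of the suprabasal layers of internal squamous epithelia, had the largest fold of the 7 genes. It measured 0.265, 0.685 and 0.654 FPKM in PC9-GR and 32.6, 33.2 and 27.7 FPKM in PC9. PC9 libraries were close to each other, and PC9-GR library 1 was the lowest of all 6. The means were 0.535 ± 0.234 FPKM in PC9-GR and 31.2 ± 2.99 FPKM in PC9, a 58.3-fold difference, with a log2 difference of -4.40 (SE 0.15, limma adjusted p = 3.53e-08). As for SPRR3, only the PC9 libraries reached the filter. The table gives the same locus to AC019349.5, an entry outside the set, which measured 0.0834, 0.001 and 0.235 FPKM in PC9-GR and 14.1, 15.5 and 15.4 FPKM in PC9. The value 0.001 is the lowest in the table. Reads could be split between these overlapping entries, so the level of KRT13 is uncertain to that extent, while both entries were lower.

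KRT6B, a type II keratin of wounded and hyperproliferative squamous epithelium, kept a substantial level. It measured 18.6, 17.8 and 20.2 FPKM in PC9-GR, against 72.2, 89.9 and 99.9 FPKM in PC9, a 4.63-fold difference of the means. The log2 difference was -2.14 (SE 0.13, limma adjusted p = 4.85e-07). KRT6B has near-identical copies: 47.1% of its 50-base words are found in other genes' transcripts, 44.8% in KRT6C and 28.9% in KRT6A, and at 100 bases 24.6% still are. Its FPKM is therefore uncertain where reads were divided among the KRT6 genes. KRT6A measured 61.4 ± 5.92 FPKM in PC9-GR and 144.8 ± 20.0 in PC9, and was called lower. KRT6C measured 0.548 ± 0.137 in PC9-GR and 0.267 ± 0.105 in PC9, under the filter of 1 FPKM in 3 libraries. For KRT6C p was 0.1 in a two-sided exact permutation test, the smallest that 3 against 3 libraries allow.

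A2ML1, a secreted protease inhibitor of the alpha-2-macroglobulin family made in the upper epidermis, measured 3.62, 2.64 and 2.81 FPKM in PC9-GR and 17.8, 17.8 and 20.0 FPKM in PC9. The means were 3.02 ± 0.523 FPKM in PC9-GR and 18.5 ± 1.29 FPKM in PC9 (SD, n = 3 each). The log2 difference was -2.29 (SE 0.13, limma adjusted p = 3.63e-07). The table gives A2ML1 a locus of 205403 bases that RIMKLB shares. RIMKLB, which was also called lower, measured 9.28 ± 0.647 FPKM in PC9-GR and 19.5 ± 1.64 in PC9.

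TRIM29, a TRIM-family protein of basal and squamous epithelia known to bind p53, had the smallest difference. It measured 34.2, 36.1 and 35.2 FPKM in PC9-GR, against 56.3, 86.4 and 83.6 FPKM in PC9. The lowest PC9 library was only 1.56 times the highest PC9-GR library. The log2 difference was -1.05 (SE 0.15, limma adjusted p = 0.000101). Its authors' log2 ratio, -1.09, was close to the smallest absolute ratio in the table, 1. Relative to the median over tested genes of both directions it was -0.43, with a range from -1.35 to 0.02 over the alternatives. The call was lost with library totals set equal over the listed genes (log2 difference -0.27, limma adjusted p = 0.0922) and under quantile normalization (log2 difference -0.27, limma adjusted p = 0.0593). Both scalings were computed over the listed genes alone, all selected for a difference between the lines. They can therefore remove part of that difference, here and for the genes below. The limma adjusted p of TRIM29 over all 14 alternatives ran from 8.27e-06 to 0.0922. The remaining 6 genes of the set were called lower in each alternative run.

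**Figure D2:**
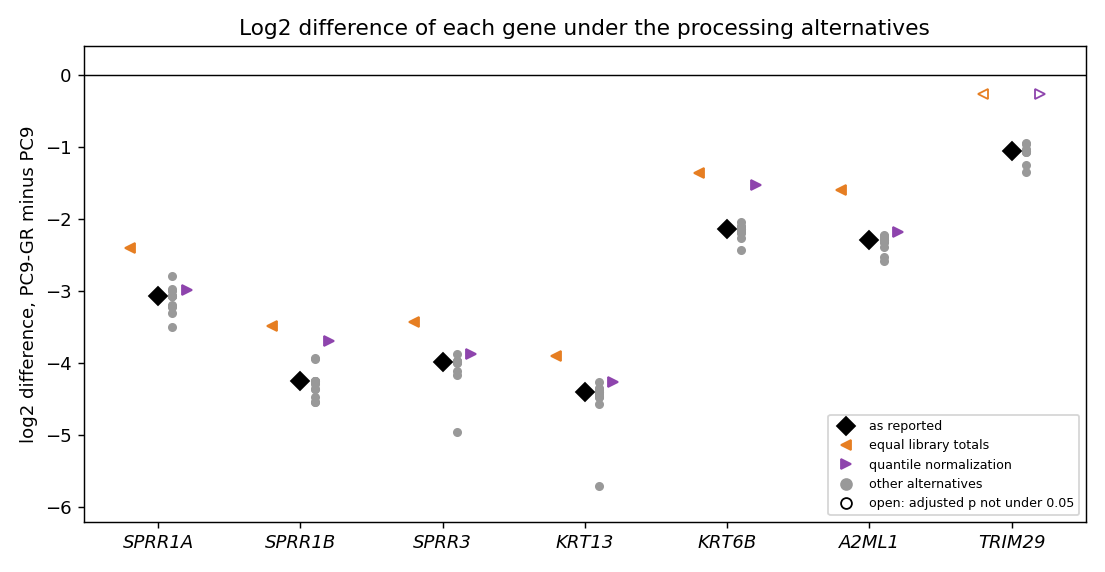
Log2 difference (PC9-GR minus PC9) of each gene as reported (black) and under the 14 alternatives, with equal library totals in orange, quantile normalization in purple and the others in grey; open symbols did not pass adjusted p under 0.05. All values are below 0, and only TRIM29 has open symbols, both at -0.27.

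The order of the 7 transcripts by level differed between the lines. In PC9-GR it ran from TRIM29 (35.2 FPKM) over KRT6B (18.9), SPRR1B (11.8), A2ML1 (3.02), SPRR1A (2.26) and SPRR3 (0.776) to KRT13 (0.535). Of these neighbours, only A2ML1 and SPRR1A had overlapping libraries. In PC9 SPRR1B (247.1 FPKM) came first, followed by KRT6B (87.3), TRIM29 (75.4), KRT13 (31.2), SPRR3 (27.3), SPRR1A (27.1) and A2ML1 (18.5). The libraries overlapped between KRT6B and TRIM29, between KRT13 and SPRR3 and between SPRR3 and SPRR1A, so the order within these pairs is not resolved.

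Whether the genes fell by different amounts was tested on the log2 ratio of 2 genes within each library, for 5 pairs. KRT13 stood lower relative to KRT6B in PC9-GR (mean log2 ratio -3.71, range -3.96 to -3.48) than in PC9 (mean -1.45, range -1.81 to -1.13), a difference of -2.26. A2ML1 over TRIM29 likewise differed by -1.23, with ratios from -3.35 to -2.93 in PC9-GR and from -2.22 to -1.61 in PC9. SPRR1A over SPRR1B differed by 1.18, with ratios from -2.48 to -0.98 in PC9-GR and from -3.29 to -2.82 in PC9. The groups did not overlap in these 3 pairs, and p was 0.1 for each in a two-sided exact permutation test, the smallest possible, and 0.167 after adjustment over the 5 pairs. With 3 libraries a line, no pair could reach 0.05. The SPRR1A over SPRR1B result depended on the added 1: with a pseudocount of 0.1 the difference was 0.86 (exact p = 0.2). Quantile normalization brought it to 0.71 (exact p = 0.3), and leaving out PC9-GR replicate 2 likewise to 0.71. With a pseudocount of 0.1, KRT13 over KRT6B differed by -3.51, and under quantile normalization A2ML1 over TRIM29 differed by -1.91. KRT13 over SPRR3 differed by -0.42 (exact p = 0.3) and SPRR3 over SPRR1B by 0.27 (exact p = 0.7), both with overlapping groups. The sign of the SPRR3 over SPRR1B difference turned with a pseudocount of 0.1 (-0.59), so which of these 2 genes changed more is not settled by these data.

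The spread among replicates differed between genes of one family. In PC9 the coefficient of variation (SD over mean of FPKM) was 43.5% for SPRR1B and 36.5% for SPRR1A, larger than in 92.5% and 88.2% of the tested genes. It was 22.1% for TRIM29, 17.1% for SPRR3, 16.1% for KRT6B, 9.59% for KRT13 and 6.96% for A2ML1, with a median of 13.95% over tested genes. In PC9-GR it was 43.8% for KRT13 and 37.3% for SPRR1B, but only 4.86% for SPRR3 and 2.81% for TRIM29, with a median of 14.7%. PC9 library 3 was the highest PC9 library for 5 of the 7 genes and library 1 the lowest for 5. Over all tested genes library 3 was the highest for 33.2% and library 1 the lowest for 37.2%. With equal library totals, library 3 was the highest for 5 of the 7 genes, against 24.9% of all tested genes, and library 1 was the lowest for 4 and the highest for 1. Among the 24 other genes of the lists that were called lower, library 3 was the highest for 37.5% as deposited and 29.2% with equal totals. Library 1 was the lowest for 75% of these 24 genes as deposited and 66.7% with equal totals. Over all tested genes the shares for library 1 were 37.2% and 27.1%. The genes are not independent, and 3 libraries allow no test of this pattern.

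**Figure D3:**
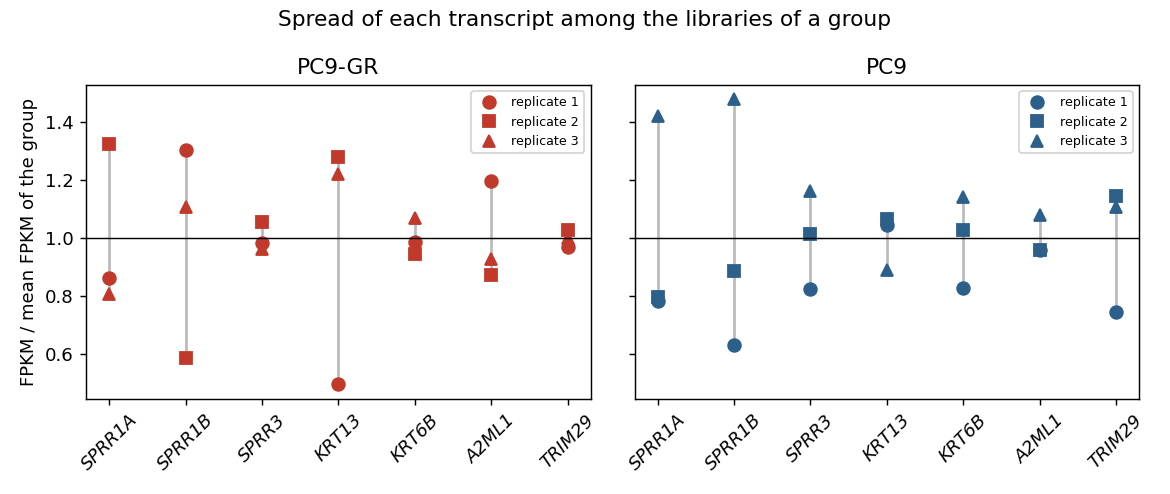
FPKM of each library divided by the mean of its group, for PC9-GR (left) and PC9 (right), with grey lines from the lowest to the highest library. In PC9, library 3 (triangles) is the highest for SPRR1A, SPRR1B, SPRR3, KRT6B and A2ML1; in PC9-GR the widest ranges are those of KRT13, SPRR1B and SPRR1A.

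Listed genes beside the SPRR genes were lower as well. The table places SPRR1A, SPRR3, SPRR1B, SPRR2D and SPRR2F next to each other among listed genes on chromosome 1, within a stretch of 157.4 kb from 152956556 to 153113927 (build not named). All 5 were called lower, by 11.96-fold, 35.2-fold, 20.9-fold, 7.04-fold and 3.86-fold in that order. Over all genes tested 51.3% were called lower. The nearest listed gene before them is ECM1, an extracellular matrix protein 2470.3 kb away, which was called higher at 6.46 ± 0.237 FPKM in PC9-GR and 2.58 ± 0.260 in PC9. After the stretch the table lists S100A2 (from 153533583) and S100A14 (from 153586730), which were called lower, by 6.73-fold and 2.01-fold. SPRR2D and SPRR2F share 19.3% and 18.2% of their 50-base words with other genes, so their values are uncertain. On chromosome 12 KRT6B, KRT6C, KRT6A and KRT5 follow each other within 74.0 kb (52840434 to 52914471), with KRT6B and KRT6A called lower and KRT5 lower at 16.6 ± 3.99 FPKM in PC9-GR and 90.8 ± 20.7 in PC9. On chromosome 17 KRT13, AC019349.5, KRT16 and KRT17 were all called lower within 286.0 kb (39657232 to 39943183). KRT17 is given a wide locus of 167496 bases and SPRR2F one of 71229 bases. These loci set the ends of the stretches on chromosomes 17 and 1, so the lengths of both stretches are uncertain to that extent.

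**Figure D4:**
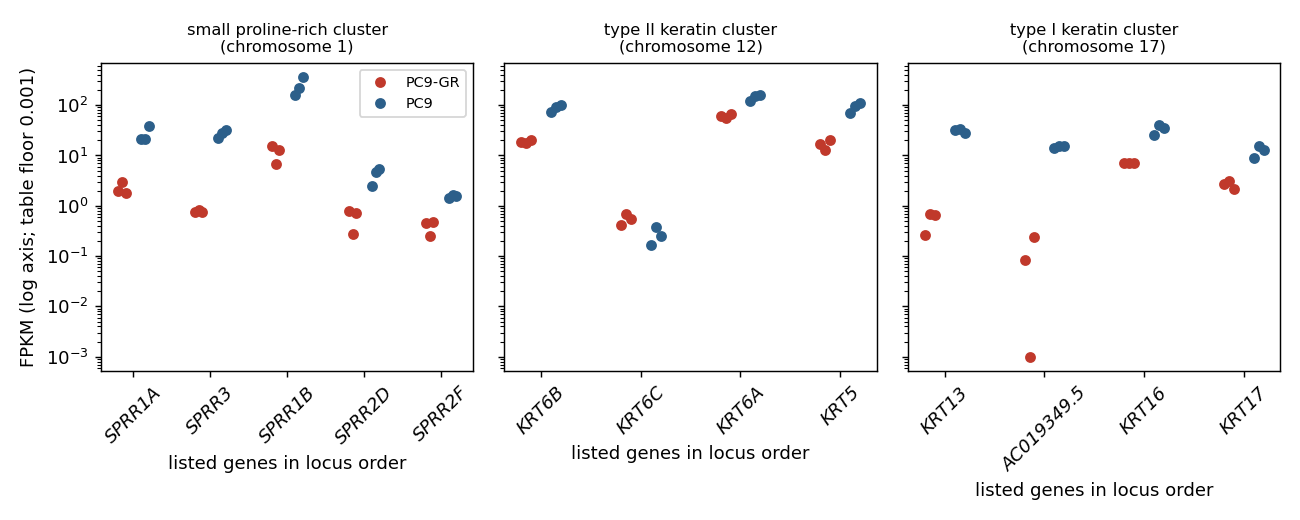
FPKM (log axis) in PC9-GR (red) and PC9 (blue) libraries for listed genes in their order along 3 gene clusters; genes that are not in the deposited table are not drawn. All genes except KRT6C are lower in PC9-GR; 1 PC9-GR library of AC019349.5 is at 0.001, the lowest value in the table.

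The neighbours of the remaining genes moved in both directions. MFAP5, a microfibril protein 18.7 kb before A2ML1, was called lower (5.66 ± 1.54 FPKM in PC9-GR, 82.0 ± 12.9 in PC9). KLRG1, a lectin-like receptor 63.0 kb after A2ML1, was called higher (1.44 ± 0.181 in PC9-GR, 0.369 ± 0.156 in PC9). Only the PC9-GR libraries of KLRG1 reached the filter. MPZL2, an adhesion protein, and CRTAM, an immune adhesion receptor, are the nearest listed genes to TRIM29, at 1846.7 and 2653.0 kb. MPZL2 was called lower, and CRTAM did not reach the filter, with 0.865 ± 0.370 FPKM in PC9-GR and 0.249 ± 0.162 in PC9. TNS4, 999.4 kb before KRT13, and NR4A1, 387.1 kb before KRT6B, were called lower.

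Among cornified envelope and epidermal differentiation genes, 8 of the 60 listed for this purpose are in the table besides the 3 SPRR genes of the set. Of these 8, 6 were called lower and 2 higher, against 51.3% lower over all genes tested, with a median log2 difference of -1.33. That of all tested genes, -0.63, mixes nearly equal numbers of lower and higher genes. S100A2, a calcium-binding protein of basal keratinocytes, measured 10.3 ± 1.19 FPKM in PC9-GR and 69.5 ± 14.6 in PC9, and sciellin (SCEL), an envelope precursor, measured 5.78 ± 1.08 in PC9-GR and 36.2 ± 5.94 in PC9. The transglutaminases that crosslink the envelope went in opposite directions: TGM5 was lower at 0.660 ± 0.277 FPKM in PC9-GR and 4.20 ± 0.635 in PC9, while TGM1 was higher at 1.71 ± 0.106 in PC9-GR and 0.827 ± 0.200 in PC9. Of the PC9 libraries of TGM1 only library 2 (1.06 FPKM) reached 1 FPKM, so TGM1 passed the filter through its PC9-GR libraries. Each of these genes was thus tested because of the line in which it is higher. Cystatin A (CSTA), a protease inhibitor of the envelope, was higher at 14.5 ± 0.798 in PC9-GR and 6.99 ± 1.74 in PC9. S100A14 was called lower (75.4 ± 4.64 FPKM in PC9-GR, 151.4 ± 3.56 in PC9), a call that equal library totals removed (limma adjusted p = 0.0683, with a range from 6.93e-07 over its alternatives).

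Of the keratins, 5 more are in the table, of which 4 were called lower, 0 higher, and KRT6C was below the filter. Over all genes tested 51.3% were called lower. KRT5, the type II keratin of basal cells, was 5.46-fold lower, and KRT16 and KRT17, type I partners of KRT6 in stressed epithelium, were 4.73-fold and 4.604-fold lower. KRT16 measured 7.11 ± 0.126 FPKM in PC9-GR and 33.6 ± 7.37 in PC9. KRT17 measured 2.67 ± 0.480 in PC9-GR and 12.3 ± 3.34 in PC9. The fold of KRT6B, 4.63, lay between those of KRT16 and KRT17, and that of KRT13 was 58.3; these differences in fold were not tested. Of 15 desmosome genes, only DSG3 and CDSN are listed, both below the filter. The desmosomal cadherin DSG3 measured 1.01 ± 0.208 FPKM in PC9-GR and 0.402 ± 0.0296 in PC9, and corneodesmosin (CDSN) 0.152 ± 0.0497 in PC9-GR and 0.380 ± 0.0380 in PC9 (two-sided exact permutation p = 0.1 each).

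Of 33 protease inhibitors and proteases of squamous epithelium, 7 besides A2ML1 are listed, of which 4 were called lower, 0 higher, and 3 were below the filter. The share called lower over all genes tested was 51.3%. PI3 (elafin), an elastase inhibitor, was far above the 7 genes of the set at 150.5 ± 8.59 FPKM in PC9-GR and 570.9 ± 113.4 in PC9. SERPINB5 (maspin) measured 21.5 ± 2.23 in PC9-GR and 99.03 ± 24.2 in PC9, and SLPI 36.5 ± 4.31 in PC9-GR and 103.1 ± 13.9 in PC9. SERPINB1 (46.8 ± 6.29 in PC9-GR, 101.5 ± 5.71 in PC9) was not called after quantile normalization (limma adjusted p = 0.086, with a range from 4.25e-07). SERPINB2 was listed at 0.001 FPKM in each PC9-GR library, against 0.863, 1.01 and 1.17 FPKM in PC9. SPINK6 was also listed at 0.001 in each PC9-GR library, with 0.0805, 0.0854 and 1.399 FPKM in PC9. SERPINB4 overlapped between the groups, at 0.121, 0.715 and 0.615 FPKM in PC9-GR and 0.0803, 0.202 and 0.150 in PC9 (exact permutation p = 0.3).

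Of 36 regulators of squamous differentiation, 5 besides TRIM29 are listed, and all 5 were called lower, with a median log2 difference of -1.14. Over all genes tested 51.3% were called lower. Only genes with an authors' absolute log2 ratio of at least 1 are listed, so that median is near the smallest size a listed lower gene can have. OVOL1, a repressor that acts as epidermal cells leave the basal layer, measured 2.23 ± 0.282 FPKM in PC9-GR and 7.67 ± 0.184 in PC9. KLF5, an epithelial zinc finger factor, measured 56.6 ± 5.93 in PC9-GR and 118.7 ± 9.15 in PC9, and was not called after quantile normalization (limma adjusted p = 0.0502, with a range from 5.07e-07). GRHL3, a grainyhead factor of barrier formation, measured 1.30 ± 0.340 in PC9-GR and 3.02 ± 0.428 in PC9, and was no longer called once library totals were equal (limma adjusted p = 0.109, with a range from 0.000132). JAG1, a Notch ligand, was 2.35-fold lower. FOS, a subunit of AP-1, was variable, at 1.36, 4.87 and 2.82 FPKM in PC9-GR and 7.64, 36.1 and 14.6 FPKM in PC9. FOS was highest in library 2 of each line. In PC9, SPRR1A, SPRR1B and SPRR3 were highest in library 3. In PC9-GR, SPRR1A and SPRR3 were highest in library 2 and SPRR1B in library 1. A link between FOS and these genes was not tested.

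Of 26 mucosal squamous markers, 6 besides KRT13 are listed, with 3 called lower, 2 higher and 1 below the filter. S100P was 4.97-fold lower, the gap junction protein GJB2 3.47-fold lower and LYPD3, a surface protein of migrating keratinocytes, 2.52-fold lower. ECM1 and the mucin MUC4 were higher, with MUC4 at 6.46 ± 2.01 FPKM in PC9-GR and 2.76 ± 0.815 in PC9. The lipoxygenase ALOXE3 did not reach the filter, with 0.818 ± 0.443 FPKM in PC9-GR and 0.314 ± 0.0676 in PC9. Retinoids restrain squamous differentiation, and 4 of 23 genes of that pathway are listed. The retinoid enzymes ALDH1A2 (1.11 ± 0.203 FPKM in PC9-GR, 4.08 ± 1.89 in PC9) and RDH10 (5.50 ± 0.473 in PC9-GR, 11.3 ± 1.47 in PC9) were called lower, but RDH10 was not once library totals were equal (limma adjusted p = 0.189, with a range from 1.04e-05). The retinoic acid receptor RARB and the retinoid-induced RARRES3 were below the filter, RARB at 0.957 ± 0.350 FPKM in PC9-GR and 0.170 ± 0.101 in PC9, and RARRES3 at 0.824 ± 0.367 in PC9-GR and 0.193 ± 0.112 in PC9. Over all these lists, 24 of the 28 tested genes outside the set were called lower and 4 higher, against 51.3% lower and 48.4% higher over all genes tested. A further 9 genes of the lists were below the filter, and with no filter 26 were called lower and 9 higher. Among the lower genes, SPRR2D, SPRR2F and TGM5 passed the filter through PC9 alone. The lists were chosen with earlier results of these data known.

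**Figure D5:**
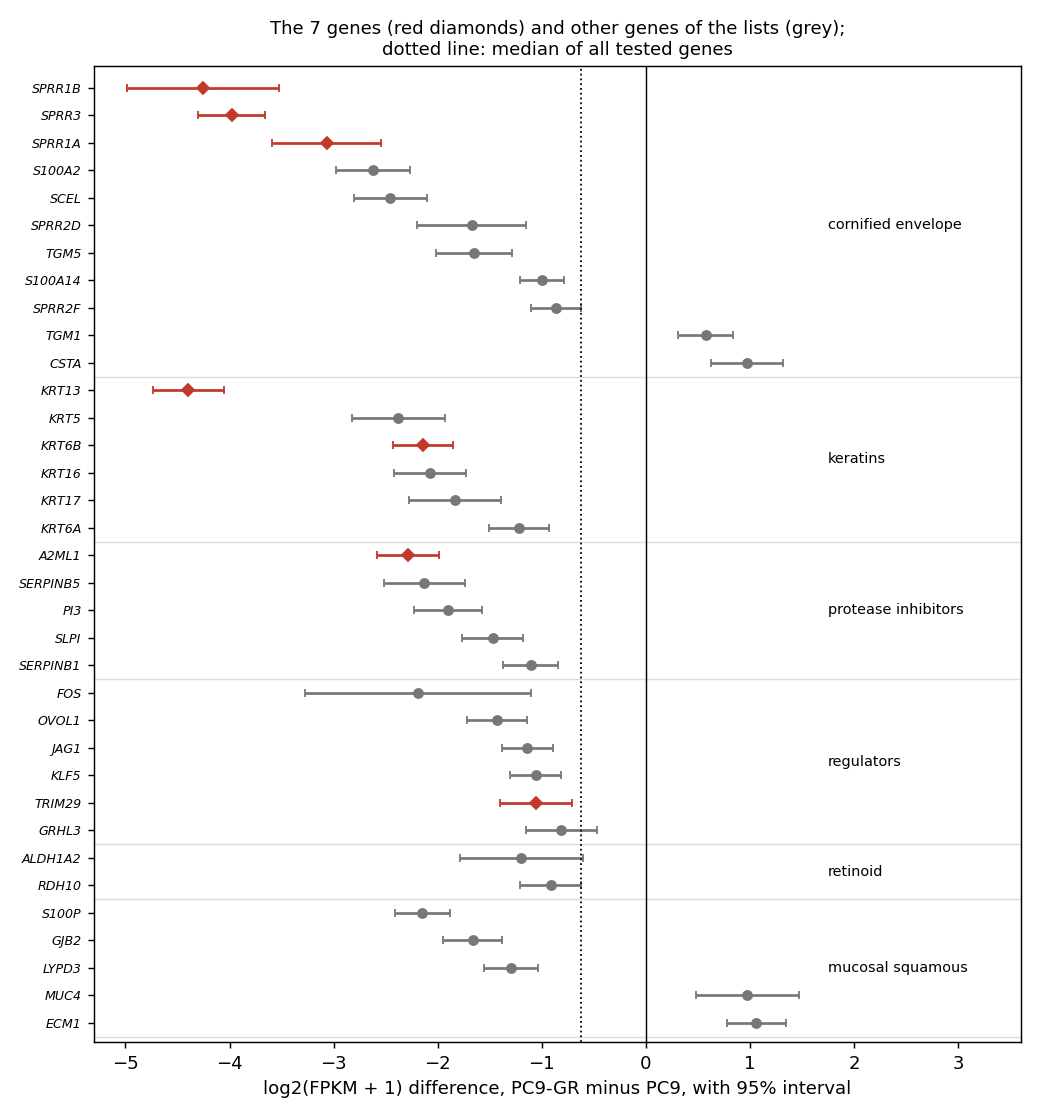
Log2(FPKM + 1) difference, PC9-GR minus PC9, with 95% interval from limma for the 7 genes (red diamonds) and the other tested genes of the lists (grey); the dotted line is the median of all tested genes at -0.63. KRT13, SPRR1B and SPRR3 lie farthest to the left, and TGM1, CSTA, MUC4 and ECM1 are the tested genes of the lists to the right of 0.

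Likeness to the set was measured by Pearson's r of log2(FPKM + 1) over the 6 libraries, which mostly reflects the gap between the lines. For SPRR1B the closest genes were GAREM (r = 0.997), ME2 (0.997), LINC00941 (0.996), CSF2 (0.996) and SERPINB8 (0.995), and 38 of 1206 genes exceeded 0.99. For the mean z-score of the 7 genes they were OSBP2 (0.999), NUGGC (0.999), ELF5 (0.998), B3GNT3 (0.998) and RP11-488C13.5 (0.998), and 110 of 1200 genes exceeded 0.99. NUGGC reached the filter only in its PC9 libraries. Among the 7 genes r ran from 0.932 (KRT13 and TRIM29) to 0.997 (SPRR3 and KRT6B). ELF5, an epithelial ETS factor, measured 1.82, 1.97 and 2.05 FPKM in PC9-GR and 9.24, 10.7 and 11.1 FPKM in PC9. CSF2, a haematopoietic growth factor, measured 1.27, 0.710 and 1.22 FPKM in PC9-GR and 3.37, 4.28 and 4.47 in PC9, so that its lowest library in each line was the same as for SPRR1B.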

How the data were processed

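Total RNA from 3 PC9-GR and 3 PC9 cultures was extracted with Trizol and made into strand-specific libraries with an Agilent SureSelect kit, per the labels' protocols. TopHat and Cufflinks were used, per the submitters' processing notes; the sources used here name no version, genome build, annotation or strand setting. Per the file headers, the deposited values are FPKM for each library and group. The authors also deposited a linear ratio (PC9-GR over PC9), a log2 ratio, and a p-value and q-value for each gene. The table lists only genes with an authors' absolute log2 ratio of at least 1 and p-value up to 0.04965, so each test is conditioned on a selection made from these same libraries. Library columns were matched to samples by name.

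FPKM was used as deposited. Testing required 1 FPKM or more in 3 or more of the 6 libraries (1207 of 1705 genes), and all 7 genes of the set passed. The test was limma 3.58.1 in R 4.3.3 on log2(FPKM + 1), two-sided, with group as its term, a variance trend and Benjamini-Hochberg adjusted p-values over the tested genes. It was tested on simulated data in which most genes did not change. Nearly all genes tested here were called after selection, so that check gives no error rate for these data. Exact permutation tests used scipy 1.17.1 and promoter alignments Biopython 1.88. Promoter windows come from RefSeq, matched by gene symbol, and transcripts from GENCODE 29, matched by gene identifier, both on GRCh38; the table's own loci were never combined with these coordinates. The limma p-values set the difference between the lines against the spread between cultures of the same line. PC9-GR is the only resistant line here, so they say nothing about variation between resistant lines. The genes and gene lists were chosen with earlier results of these data known. Named genes were the 7 genes, every gene of the lists that is in the table (at most 8 per list by size of difference), the nearest listed neighbours, and the 5 genes most correlated with SPRR1B and with the mean of the set. CSTA, TGM1 and SPRR2F fall outside this rule and were named after their values were seen, as were PDGFRB, LYZ and FOXA1, the markers of other cells that are listed. Alternatives were another pseudocount, 2 other filters, 3 scalings, no variance trend, a replicate block and leaving out each library. Same-numbered libraries were checked for pairing and their numbers were not taken as pairs.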

Additional observations from a re-analysis of the deposited data

How the results depend on the processing

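Each of the 7 genes stayed lower in PC9-GR in each of its 14 alternatives, and 6 or 7 of them were called; only TRIM29 lost its call, under equal library totals and quantile normalization. The scalings were computed over the listed genes alone, all selected for a difference between the lines, so they can shift that difference. Scaling moved the median log2 difference of all tested genes, which was -0.63 as deposited, -0.16 with equal totals, -0.28 with quantile normalization and -0.76 with median ratios. Relative to that median TRIM29 ranged from -1.35 to 0.02, and the other 6 genes stayed at or below -1.11. The share of calls in the higher direction was 48.5% as deposited and 57.5% after equal totals. A filter at 5 FPKM left 234 higher and 393 lower genes over the table, against 584 and 619, with 37.3% of calls higher. That filter tested 629 genes in place of 1207; the cause of the change in share was not tested. Outside the set, 4 genes of the lists were higher; this count was 2 with the filter at 5 FPKM and 9 with no filter, and lower calls ran from 19 to 26. SPRR3 over SPRR1B, a difference of 0.27, turned to -0.59 with a pseudocount of 0.1 and to -0.18 under quantile normalization, and it ran from -0.060 (without PC9-GR replicate 2) to 0.49 when 1 library was left out; the cause was not tested. The number of genes of the set above the median spread in PC9 was 5 by coefficient of variation and 5 by SD of log2 values. Deviations of same-numbered libraries correlated at -0.0977, 0.0822 and 0.164, so the numbers were not read as pairs. With the replicate block, limma called 586 higher and 619 lower genes and all 7 genes of the set, and the mean differences between pairs of genes are the same with it by construction. Within replicate numbers, SPRR3 over SPRR1B and KRT13 over SPRR3 did not keep 1 sign. Without counts, the precision of genes under 1 FPKM, KRT13 and SPRR3 in PC9-GR among them, is unknown.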
